A study of Homo sapiens with 4 samples.

Results

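The sites described here are positions in the human genome that carried a Star-PAP CLIP summit after depletion of RBM10, another one close by after depletion of Star-PAP itself, and none in the control cells. They were the siRBM10 summits on chromosomes 1 to 22 with a siStar-PAP summit within 100 bp and no control summit within 500 bp. The rule was met by 11921 of 276105 autosomal siRBM10 summits, a share of 4.32% with a 95% Wilson interval of 4.24% to 4.39%, and these are called shared sites. As the sites were chosen by the positions of summits in all 3 lists, the number of sites and the absence of control signal are descriptions of the selection and carry no test.

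The data came from HEK293 cells, a line derived from human embryonic kidney, that were transfected with siRNA and harvested after 48 h. The groups were a control and depletions with siStar-PAP and siRBM10, each pulled down with an anti-Star-PAP antibody after UV crosslinking at 400 mJ/cm2, plus an IgG pull-down that served as the reference for peak calling. The labels of all 4 samples give siRNA transfection with Oligofectamine, whereas the methods of the study describe calcium phosphate, and the siRNA of the control cells is not given for the HITS-CLIP libraries, although the study names a scrambled siRNA as the control of another assay. Each condition was 1 library, so no comparison between conditions carries a test, and the intervals below cover counting error only.

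Star-PAP, encoded by TUT1, is a nuclear non-canonical poly(A) polymerase that adds the poly(A) tail to a subset of mRNAs and also acts on U6 snRNA. RBM10 is an RNA-binding protein of the spliceosome that regulates alternative exons and works with Star-PAP as a co-regulator. HITS-CLIP crosslinks a protein to RNA in living cells, pulls it down with an antibody and sequences the RNA fragments that come with it, so a summit marks where fragments piled up in the genome. The lists hold positions only and give no measure of how far Star-PAP or RBM10 fell in these cells.

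The control list held 382958 autosomal summits and the siStar-PAP list 306360. Each summit carries the −log10 of its p-value as a score, from 1.3 upwards, and 63.1% of all control summits shared a single score of 1.33, while the commonest score made up 22.2% of the siRBM10 list and 22.1% of the siStar-PAP list. The study gives only approximate read numbers for its Star-PAP samples, and the lists give no depth or tag numbers. Scores were therefore not compared between lists as levels of binding. The names of the deposited lists mark both depletion libraries in the same way and the control in another, without saying what the marks mean, so that mark and condition cannot be told apart. The lists give no strand, and a site in overlapping or antisense genes could belong to either.

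The strongest sites are shown first, as they had high scores in both depletion lists. Each line gives the gene, the hg19 position on the plus strand and the 50 bases on either side of the siRBM10 summit, with capitals for the stretch from the siRBM10 summit to the siStar-PAP summit. They were taken from the 15 sites with the highest lower score of both depletion lists.
ENSG00000259001, chr14:20811414-20811514: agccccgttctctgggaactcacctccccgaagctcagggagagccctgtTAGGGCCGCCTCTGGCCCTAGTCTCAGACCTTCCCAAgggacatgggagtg
RMRP, chr9:35657874-35657974: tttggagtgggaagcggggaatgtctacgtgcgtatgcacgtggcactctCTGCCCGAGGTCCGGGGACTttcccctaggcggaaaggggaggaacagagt
SMAD4, chr18:48604610-48604710: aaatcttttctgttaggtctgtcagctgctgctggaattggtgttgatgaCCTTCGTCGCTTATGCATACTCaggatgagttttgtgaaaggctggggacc
ABL1, chr9:133748220-133748320: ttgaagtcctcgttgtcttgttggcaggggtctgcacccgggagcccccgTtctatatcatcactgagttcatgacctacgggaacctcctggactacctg
RUNX1, chr21:36171680-36171780: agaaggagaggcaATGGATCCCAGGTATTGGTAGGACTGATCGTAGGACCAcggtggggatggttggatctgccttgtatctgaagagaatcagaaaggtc
PDGFRA, chr4:55152006-55152106: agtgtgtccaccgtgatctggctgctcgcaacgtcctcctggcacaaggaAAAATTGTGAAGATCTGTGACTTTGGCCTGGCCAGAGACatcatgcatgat
H1-4, chr6:26156992-26157092: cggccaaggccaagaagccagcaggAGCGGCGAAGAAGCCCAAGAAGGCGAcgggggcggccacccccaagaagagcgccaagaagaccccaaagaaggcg
The first 2 lie in exons annotated for non-coding RNAs. SMAD4, ABL1, RUNX1 and PDGFRA are coding exons of genes known for mutations in tumours, and H1-4 is a gene of a linker histone. For ABL1 the summits of both depletions fell on the same base, so that only 1 capital is seen.

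The 3 sites with the highest lower score of both lists lay in genes of non-coding RNAs. The locus ENSG00000259001 on chromosome 14 had a score of 77.8 on siRBM10 and 63.8 on siStar-PAP with 36 bp between the summits, and its nearest control summit lay 11740 bp away. RMRP, the RNA of the mitochondrial RNA-processing endonuclease, had scores of 72.9 and 32.5 in the same order, and the nearest control summit was 14788 bp away. RN7SK, the 7SK RNA that holds the elongation factor P-TEFb inactive, had 34.8 and 35.4, and RN7SL2, an RNA of the signal recognition particle, had 24.6 and 17.6. The related pseudogene RN7SL151P, whose reads cannot be told apart with certainty from its parent copies, had 18.7 and 25.6. TERC, the RNA template of telomerase, held 1 shared site. In RMRP, RN7SK, RN7SL2 and TERC, short genes of 264 to 541 bp, the shared site was the only siRBM10 summit and no control summit was listed. NEAT1, with a length of 22767 bp, had 2 shared sites among 17 siRBM10 summits and also no control summit. MALAT1, with a length of 10434 bp, had 0 among 2, with 2 control summits listed there.

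Among genes of small RNAs, the share of siRBM10 summits that met the rule differed by type. Exons of snoRNA genes, which guide chemical modification of ribosomal RNA, held 12 shared sites among 42 siRBM10 summits (28.6%), and snRNA genes held 5 among 19 (26.3%). Genes annotated as miscellaneous RNA held 8 among 72 (11.1%), and miRNA genes held 2 among 51 (3.92%). Exons of long non-coding RNA genes held 293 among 4958 (5.91%) and processed pseudogenes 81 among 1066 (7.60%), against 4.32% for siRBM10 summits as a whole. These counts take every summit in an exon of the gene type, also where a coding exon overlaps it, and so differ from the single classes given further on. The small RNA counts are few, and near-identical copies make the exact gene uncertain.

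The strongest sites in or beside coding exons included HSP90AA1, PIK3CA, RUNX1, ABL1, SMAD4, H1-4, HSP90AB1 and PDGFRA. HSP90AA1, the stress-inducible cytosolic HSP90, had 21.5 on siRBM10 and 34.1 on siStar-PAP, and HSP90AB1, its constitutive relative, had 17.3 and 13.9. PIK3CA, the catalytic subunit of a phosphoinositide 3-kinase, had 21.3 and 21.9 with 16 bp between the summits. RUNX1, a transcription factor of blood formation, had 23.1 and 16.7, and SMAD4, the common mediator of TGF-beta signalling, had 26.4 and 15.0. ABL1, a tyrosine kinase, had 17.4 and 15.9, and PDGFRA, a receptor tyrosine kinase, had 16.4 and 12.8. H1-4 had 16.8 and 14.1. The nearest control summits to these lay between 1923 bp (SMAD4) and 7891 bp (PIK3CA) away, with scores from 1.33 (PIK3CA and PDGFRA) to 4.39 (HSP90AA1).

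A score of at least 6 in both depletion lists, a limit set after the scores were seen, was reached by 95 shared sites. Of these, 60 were in coding sequence (63.2%, interval 53.1% to 72.2%), 18 in introns, 11 in exons of non-coding RNAs, 4 in pseudogenes, 2 between genes, and 0 in UTRs. The pseudogenes included RPS19P1, RPL13P12 and RPS3P3, copies of ribosomal protein genes. Other sites lay in EEF1A1 and EEF2, the elongation factors of translation, NCL (nucleolin), EIF3A, RBM25 and HNRNPU, all named after their values were seen. Among siRBM10 summits, the share that met the rule was 6.83% at scores of 1.3 to 2 and 2.71% at 3 to 4, and it was 9.12% at 6 to 10 and 55.2% at 10 and above (69 of 125). Of the other summits of at least 10, 20 were near both a siStar-PAP and a control summit, 8 near a control summit only and 28 near neither.

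**Figure D1:**
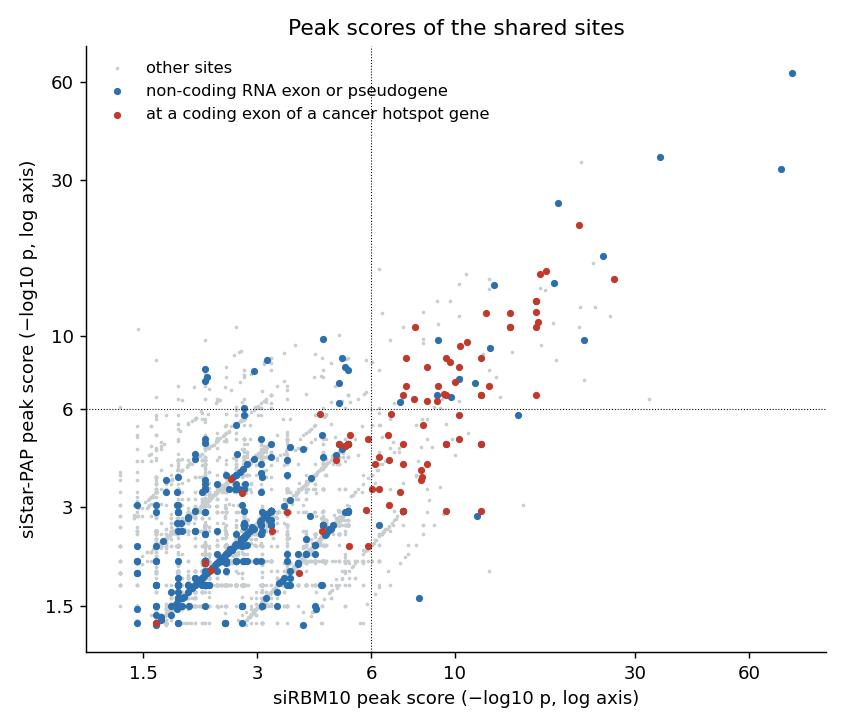
Peak score (−log10 p, log axes) of each of the 11921 shared sites in the siRBM10 list (horizontal) and the siStar-PAP list (vertical), with dotted lines at a score of 6. Blue points are exons of non-coding RNAs and pseudogenes, red points lie in or within 50 bp of coding exons of 50 cancer hotspot genes, and 35 of the 95 sites above both lines are red.

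Genes with recurrent mutations in tumours recurred among the strong sites, so a list of 50 such genes, of the kind covered by hotspot sequencing panels, was written down after these values had been seen. It is a description and supports no test. Coding exons of these genes, with 50 bp to each side, held 82 shared sites, and 35 of them were among the 95 strong sites (36.8%). An mRNA exon with a shared site was found in 31 of the 50 genes (62.0%), against 1471 of 18893 protein-coding genes (7.79%). Their coding sequence held 491 shared sites per Mb, against 30.9 per Mb over all protein-coding genes, and 58.0% of their coding siRBM10 summits were shared, against 12.01%. The control list had 9 summits in the same coding sequence, 64.1 per Mb against 111 per Mb over all genes. The siRBM10 list had 847 per Mb against 257 and the siStar-PAP list 776 per Mb against 290. Summits near both other lists were also frequent there. They were 8 of the 119 coding siRBM10 summits of these genes, against 122 of 8802 over all protein-coding genes. The clustering at these genes was thus not particular to sites absent in the control.

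SMAD4 had 7 shared sites, all in its coding sequence, among 8 coding siRBM10 summits, 7 coding siStar-PAP summits and 0 coding control summits. The tumour suppressor kinases STK11 and ATM each had 5 in exons, and EGFR, the receptor of epidermal growth factor, also had 5. KIT, a receptor of stem cell factor, had 4 in exons, and PIK3CA, RET, SMO, ABL1 and NRAS had 3 each. JAK2, a cytokine receptor kinase, had a strong site at 16.4 and 12.8 just outside a coding exon, at the same position in both lists. WT1 with 5 exonic sites, MAP2K4 and FANCA with 4 each are also known from tumours or inherited cancer syndromes and were not in the list.

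The sites at the 50 genes had higher scores and closer summits than other coding sites. Their median score was 8.16 on siRBM10 and 4.92 on siStar-PAP, against 2.70 and 2.63 at the 980 other coding sites, and the median distance between the summits was 16 bp against 40 bp. In the control list, 19 summits lay in or within 50 bp of the same coding exons, with a highest score of 3.49. A score of 6 was reached by 0 of them and by 1453 of all 382958 control summits. The count of 0 among 19 is near that share and sets these summits apart from no others. Median GC content around these sites was 47.5%. Without them the share of shared sites in mRNA exons was 13.6%, against 14.1% with them. Among the strong sites their part was larger. Of the 60 coding sites with scores of at least 6 in both depletion lists, 28 lay outside the 50 genes. A list of summits does not show whether the reads at exons of the 50 genes came from RNA pulled down with Star-PAP or entered the depletion libraries otherwise. This was not tested, so the sites at these genes are given as summits and not as binding sites. The same applies to sites at tumour genes outside the list, such as RUNX1, WT1, MAP2K4 and FANCA. Their coding sites were counted among the 980 others.

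Shared sites were more numerous than evenly spread positions would give. The share of bases with a known letter that lie within 100 bp of a siStar-PAP summit and over 500 bp from a control summit, taken chromosome by chromosome, would give 6234 sites if siRBM10 summits lay evenly, and 11921 were found, a ratio of 1.91. Taken over bases of the same chromosome and the same local GC content, the number was 8486 and the ratio 1.40. Sites at a few exact distances, described below, are part of the 11921, and 9795 remained without them. The numbers for even positions cover all distances up to 100 bp. A siStar-PAP summit within 100 bp was found at 13719 siRBM10 summits (4.97%), of which 1798 had a control summit within 500 bp. For the other pairings made by the same distances, siRBM10 with control and without siStar-PAP gave 6611 sites (ratio 0.982 to even positions), and siStar-PAP with control and without siRBM10 gave 9517 (ratio 1.24). The ratios of these other pairings, like the 1.91, were taken by chromosome only. The match by GC content was made for the shared sites alone, and the lists differed in GC content (median 48.3% for siStar-PAP and 39.3% for control). The pairings share lists, and the ratios are given side by side with no test.

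The distances between the paired summits clustered at a few exact values. Of the shared sites, 1022 had both summits at the same base (8.57%), 816 had them 16 bp apart (6.85%) and 288 had them 32 bp apart (2.42%), while the median distance was 37 bp. Over all siRBM10 summits, 1193 had the nearest siStar-PAP summit at the same base, 993 at 16 bp and 333 at 32 bp, against a median of 114 per bp from 1 to 100 bp. At 16 bp the siStar-PAP summit lay on the lower coordinate in 492 of the 993 cases and on the higher in the rest. Preferred distances were also seen against the control list, at 60 and 61 bp for siRBM10 (286 and 277 summits, median 67.5 per bp) and at 44 and 45 bp for siStar-PAP (527 and 542, median 88 per bp). The same base was commonest there too, with 926 siRBM10 summits (13.7 times the median) and 1492 siStar-PAP summits (17.0 times). Between siRBM10 and siStar-PAP it was 10.5 times the median, so summits at the same base were not particular to the depletions. Sites at 16 bp had median scores of 2.77 on siRBM10 and 2.64 on siStar-PAP and 11.5% of them lay in mRNA exons. Without the sites at the same base, 16 bp or 32 bp, 9795 remained, with 14.6% in mRNA exons. The origin of the preferred distances was not tested.

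**Figure D2:**
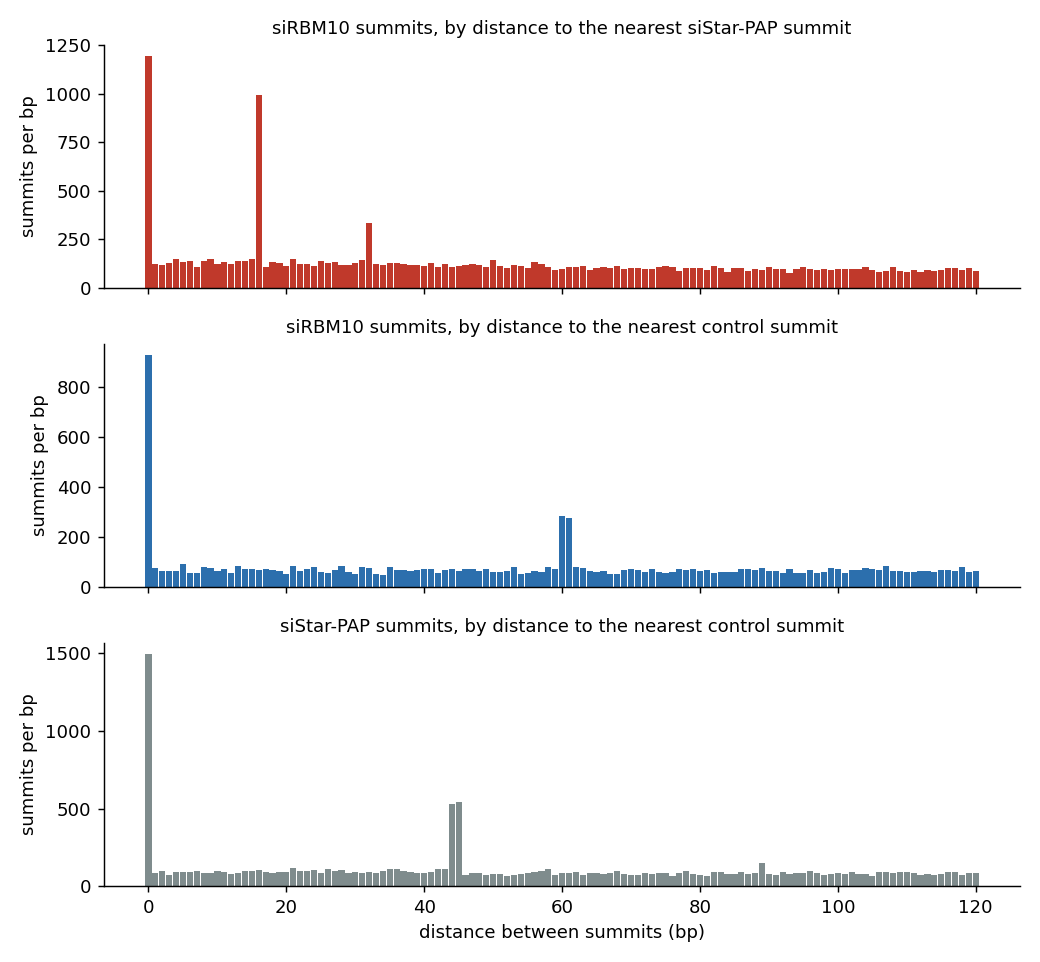
Number of summits per bp (vertical) by distance to the nearest summit of another list in bp (horizontal), for siRBM10 to siStar-PAP (top), siRBM10 to control (middle) and siStar-PAP to control (bottom). Single bars rise at 0, 16 and 32 bp in the top panel, at 0, 60 and 61 bp in the middle and at 0, 44 and 45 bp at the bottom, over a level of 67.5 to 114 per bp.

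In the last 10 bp inside the limit of 100 bp there were 817 members, and in the next 10 bp 838 siRBM10 summits failed only by that distance. Of those with a close siStar-PAP summit, 230 had their nearest control summit over 500 and up to 600 bp away and were members, while 290 had it over 400 and up to 500 bp away and were not. The nearest control summit lay at a median of 4529 bp from a shared site, against 3076 bp from the other siRBM10 summits. The rule left out sites with a control summit within 500 bp, so part of this difference was fixed in advance. The 11921 sites paired with 11921 different siStar-PAP summits, and 802 pairs of neighbouring sites were within 5 kb of each other.

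A larger share of the shared sites than of the other siRBM10 summits lay in exons. Coding sequence held 1049 of them (8.80%), 3′-UTRs 495 (4.15%), 5′-UTRs 137 (1.15%), exons of non-coding RNAs 292 (2.45%) and pseudogenes 98 (0.822%). Together, mRNA exons held 1681 (14.1%, interval 13.5% to 14.7%), against 5.81% of the other siRBM10 summits, 9.90% of the 1798 siRBM10 summits near both other lists, and 2.97% of the bases with a known letter. Introns held 7054 (59.2%), close to the 60.2% of the other siRBM10 summits and the 58.3% of bases. Intergenic sequence held 2796 (23.5%), against 31.8% and 37.0%.

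Read by class, 12.1% of the siRBM10 summits in coding sequence met the rule, 7.55% in 3′-UTRs, 7.78% in 5′-UTRs, 4.25% in introns and 3.22% between genes. The bases that met the same distances followed a similar order, from 5.22% in coding sequence to 1.62% between genes, and the ratio of both shares ran from 1.78 in 5′-UTRs to 2.31 in coding sequence. Within 500 bp of a start of a protein-coding transcript lay 536 sites (4.50%), against 2.32% of the other siRBM10 summits and 1.41% of bases. Within 100 bp of a splice site of such a transcript lay 1401 (11.8%), against 4.48% and 2.41%, and among intronic sites alone the share was 8.28% against 3.59%. For the siRBM10 summits near both other lists the shares were 2.34% at transcript starts and 7.95% at splice sites.

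**Figure D3:**
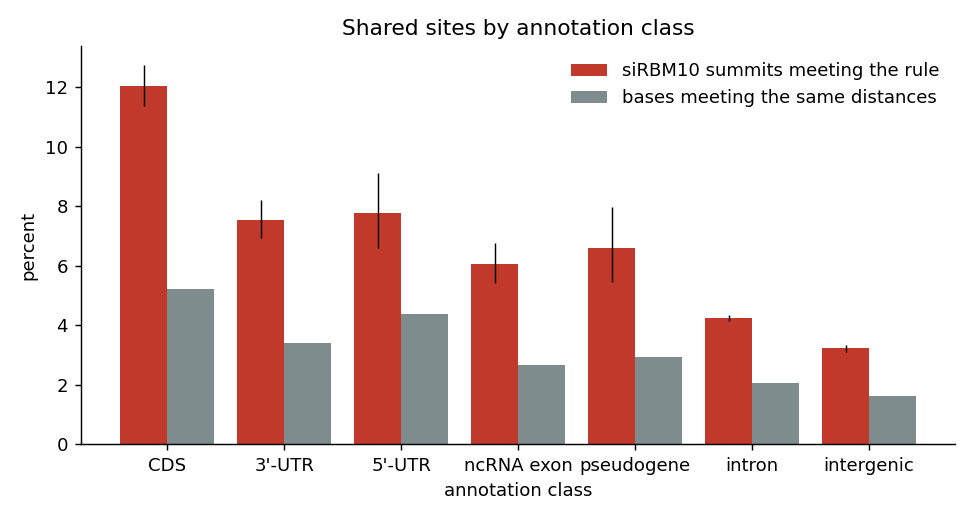
Percent of siRBM10 summits that met the rule (red, bars with 95% Wilson intervals) and percent of bases that meet the same distances (grey), for each annotation class. Coding sequence has the highest share, 12.1% of summits and 5.22% of bases, and intergenic sequence the lowest, 3.22% and 1.62%.

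The sequence around shared sites was rich in G and C. The median GC content of the window of 100 bases to each side was 52.2%, against 46.8% at the other siRBM10 summits, 50.7% at those near both other lists, 48.3% for the siStar-PAP list, 39.3% for the control list and 39.8% over all windows of that length. In windows under 35% GC, 1.62% of siRBM10 summits were shared, and in windows of 60 to 65% GC 10.0% were, with 9.02% above. Bases that met the same distances ran in a like manner, from 0.747% to 6.85%, and the ratio of both shares was between 1.31 and 2.02 in all 8 ranges.

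**Figure D4:**
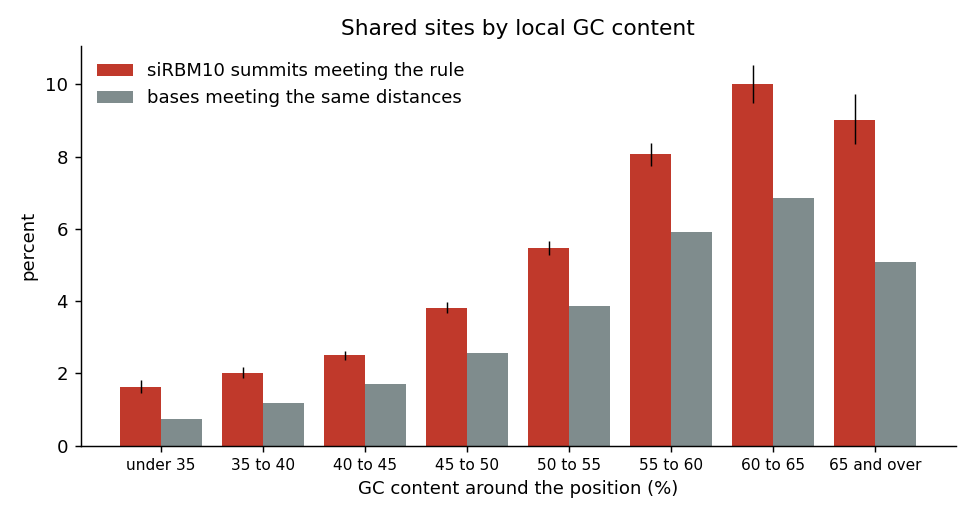
Percent of siRBM10 summits that met the rule (red, bars with 95% Wilson intervals) and percent of bases that meet the same distances (grey), by GC content of the window of 100 bases to each side. Both climb from 1.62% and 0.747% under 35% GC to 10.0% and 6.85% at 60 to 65%.

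Short sequences were searched on both strands in the 50 bases to each side of the summit. The trinucleotide ATA, written with its reverse complement TAT, the DNA letters of the AUA element that has been described for Star-PAP targets, was in 61.5% of shared sites, 74.2% of the other siRBM10 summits and 85.4% of all windows of that length. The poly(A) signal AATAAA or TTTATT was in 6.12%, 10.4% and 18.4% in the same order. The run TTTTTT or AAAAAA was in 13.5%, 15.6% and 20.4%, and the run GGGGGG or CCCCCC in 3.39%, 2.69% and 1.90%. The dinucleotide CG was in 77.0%, 65.2% and 51.1%. The 1798 siRBM10 summits near both other lists were closer to the shared sites in most of these. Their shares were 65.5% for ATA or TAT, 7.34% for the poly(A) signal and 14.7% for the run of T or A. For the run of G or C the share was 2.84%, and for CG 74.6%. GC content differed between the same sets, and its part in these shares was not tested. AATAAA and TTTATT themselves hold ATA and TAT, so that both counts overlap.

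By chromosome, shared sites were densest on the gene-rich chromosomes 19, 17 and 22. Chromosome 19 held 1084 (9.09% of all shared sites), or 19.4 per Mb, chromosome 17 held 1045, or 13.4 per Mb, and chromosome 22 held 431, or 12.4 per Mb. The lowest densities were 1.10 per Mb on chromosome 4 (207 sites) and 1.38 per Mb on chromosome 13 (132 sites). On chromosome 19, 7.92% of the siRBM10 summits met the rule, but so did 5.25% of its bases, and the ratio of 1.51 was the lowest of the 22 autosomes. Chromosome 13 had the highest ratio, 2.31, with 2.45% of summits and 1.06% of bases.

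**Figure D5:**
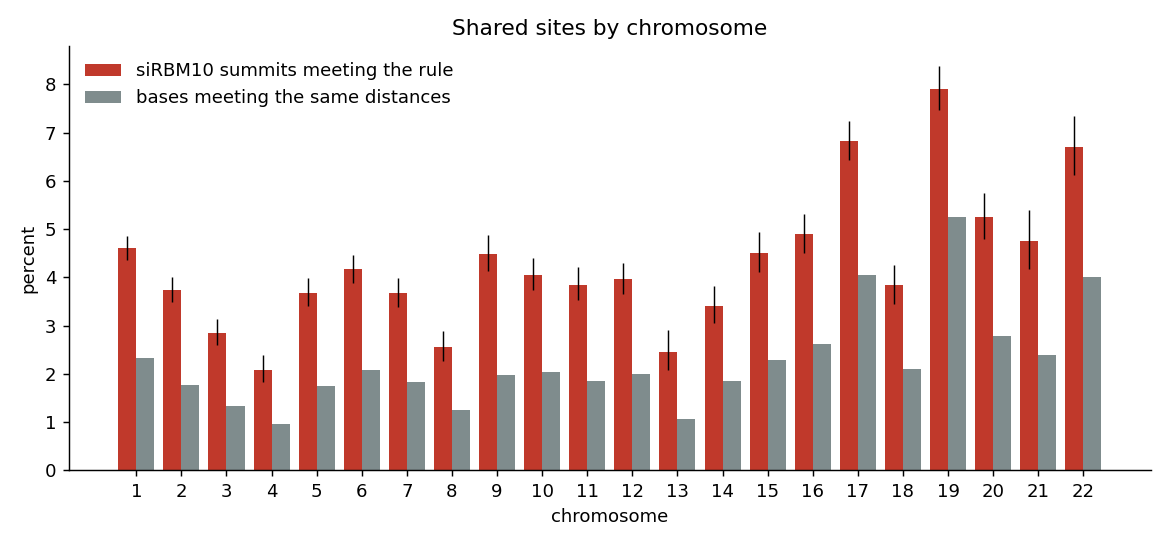
Percent of siRBM10 summits that met the rule (red, bars with 95% Wilson intervals) and percent of bases that meet the same distances (grey) on each autosome. Chromosome 19 is highest on both (7.92% and 5.25%) and chromosome 4 lowest (2.08% and 0.962%), and on every autosome the red bar is the taller.

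A shared site was found in 7077 of 61221 annotated autosomal genes of any type (11.6%), and 875 genes (1.43%) held 3 or more, of which 765 were protein-coding. Overlapping genes were each counted, so that in the gamma protocadherin cluster 4 sites on chromosome 5 gave 22 genes 3 or more sites, and a single exonic site there was counted for all 22. The genes with the most sites were long, and their sites were mainly intronic.

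EHMT1, a histone H3 lysine 9 methyltransferase, had 15 shared sites among 83 siRBM10 and 97 siStar-PAP summits, with 20 control summits and 0 sites in exons. SIPA1L3, a GTPase-activating protein of cell polarity, RPTOR, the raptor scaffold of the mTORC1 kinase complex, and the zinc finger gene ZNF536 had 14 each. CDH4 (R-cadherin) had 13, and ANKRD11, a chromatin regulator, MARK4, a microtubule-affinity kinase, CAMTA1, a calmodulin-binding transcription activator, PTPRN2, a phosphatase-like receptor of secretory granules, and RUNX1 had 11 each. SPTBN1, a beta-spectrin of the membrane skeleton, SDK2, an adhesion molecule of synapses, and PRDM16, a transcription factor of brown fat, had 10 each. In PTPRN2, 6.08% of 181 siRBM10 summits were shared, and in RUNX1 5.50% of 200, while in SPTBN1 26.3% of 38 and in LPCAT1, an acyltransferase of phospholipids with 8 sites, 26.7% of 30 were. Control summits in these 14 genes ran from 5 in LPCAT1 to 163 in RUNX1.

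Counted by density in genes of at least 20 kb with 4 or more sites, the order was led by shorter genes. NUMBL, a relative of the cell fate regulator NUMB, had 5 sites, or 19.9 per 100 kb. POMT1, an O-mannosyltransferase, had 19.03, IGFBP5, a binding protein of insulin-like growth factors, 17.1, and HSP90B1, the HSP90 of the endoplasmic reticulum, 16.8 per 100 kb. SUPT5H, a transcription elongation factor, POLR2A, the largest subunit of RNA polymerase II, TOP2A, a DNA topoisomerase, and AARS1, the alanyl-tRNA synthetase, had 13.2 to 14.8 per 100 kb. In exons, EIF3A, a subunit of a translation initiation factor, and SPTBN1 had 4 sites each, all in coding sequence, and IRGQ and the sialyltransferase gene ST8SIA5 had 4 each, of which 2 and 1 were coding. RPL8, CCT7, a subunit of the cytosolic chaperonin, and ENO1, the glycolytic enzyme enolase, had 3 each. No control summit was listed in the exons of RPL8, CCT7, ENO1, EIF3A, SPTBN1 and IRGQ, and 1 was listed in those of ST8SIA5. The rule itself selects against control summits nearby.

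Cytosolic ribosomal protein genes and histone genes held more coding sites per Mb than the 30.9 of all protein-coding genes. Of 80 cytosolic ribosomal protein genes, 20 had a shared site in an exon (25%, against 7.79% of all protein-coding genes), at 428 coding sites per Mb, and 20 of their 33 coding siRBM10 summits were shared (60.6%). RPL8 and RPS3 had 3 exonic sites each and RPL13 and the related gene RPL7L1 2 each. Processed pseudogenes make the exact copy uncertain for this family. Of 74 histone genes 12 had an exonic site (16.2%), at 254 coding sites per Mb, among them H1-4, H2AC20, H3C2, H3C7, H3C10, H4C3, H4C5 and H4C8 with 1 coding site each. The control list had 42.8 summits per Mb in the coding sequence of the ribosomal protein genes and 127 per Mb in that of histones.

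Among factors that work with Star-PAP or on splicing, 9 of 45 splicing regulators had an exonic site (20%), with 3 in HNRNPU and 2 in HNRNPUL1, and 1 each in HNRNPA0, HNRNPA1, HNRNPC, HNRNPD, RBFOX2, SRSF1 and SRSF4. Of 33 genes listed for cleavage, polyadenylation or binding of poly(A), 5 had one (15.2%). They were PABPN1 and SYMPK with 2 each and NUDT21, PABPC1 and PABPC4 with 1 each. Of 47 genes named in the study, 4 had one (8.51%), among them ANKRD1, BRCA1 and VEGFA with 1 each. These counts are small, and the last share is close to the 7.79% of all genes.

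Other families were near or below that share. An exonic site was found in 41 of 500 zinc finger genes (8.20%), 4 of 49 proteasome genes (8.16%), 23 of 327 solute carrier genes (7.03%), 3 of 42 collagen genes (7.14%) and 7 of 132 ion channel genes (5.30%), which included CACNA1B, CACNA1G and KCNA5. Of 307 protein-coding genes over 500 kb, 212 held a site anywhere but 18 in an exon (5.86%). Of 390 olfactory receptor genes, 2 had one (0.513%), OR13C8 and OR1A1, at 5.40 coding sites per Mb, while the control list had 200 summits per Mb in their coding sequence against 111 per Mb over all genes. Cadherins and protocadherins had one in 24 of 86 genes (27.9%), of which 22 were the gamma protocadherins that share the same site.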

How the data were processed

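HITS-CLIP of Star-PAP was measured in HEK293 cells in 3 conditions of 1 library each, with 1 IgG library that entered through peak calling. The submitters' processing notes name FastQC 0.72, cutadapt 1.14, BWA 0.7.12, MACS2 and hg19, and the study's methods add the CLIP Tool Kit and collapsing of identical tags. Each of the 3 deposited lists gives a peak as its summit, scored by the authors as −log10 of the peak-calling p-value (p at most 0.05). Tag numbers, widths, strands and depth are not known from them.

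Summits were paired by position in Python 3.11.15 (numpy 2.4.6, pandas 2.3.3, scipy 1.17.1). GENCODE 44 mapped to hg19 gave each summit a single class without strand, with coding sequence first, then UTRs (3′ before 5′), exons of non-coding RNAs, pseudogenes, introns and the rest. Even positions were replaced by an exact count of the bases that meet the same distances. Shares carry Wilson intervals at 95%. The pairing and counting were tested on simulated data and recovered in 2 of 2 steps. Named were the 25 genes with most sites, the 15 with most exonic sites, the 15 densest, list genes with an exonic site and the 15 strongest sites, and other names were chosen after their values were seen. Some genes and sequences within this rule are not reported here. The rule, the gene lists and the named groups were chosen with earlier results of these data known. On chromosomes X and Y, 703 further sites met the distances and were left out.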

Additional observations from a re-analysis of the deposited data

How the results depend on the processing

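The number of shared sites followed the distance allowed to the siStar-PAP summit. It was 1022 at the same position, 7426 within 50 bp, 24141 within 250 bp and 44258 within 500 bp, and 95 with a score of at least 6 in both depletion lists. Within 50 bp the share in mRNA exons was 13.4% and the number of genes with 3 or more sites 357. With p at most 0.01 in both depletion lists, 12.5% lay in mRNA exons, the median GC content was 50.2%, chromosome 19 held 7.83% and 449 genes had 3 or more. With scores of at least 6 in both lists, 63.2% lay in mRNA exons. All 60 of these were coding sites, and 28 of them lay outside the 50 cancer hotspot genes. Median GC content was 52.4% in 10 bases and 48.2% in 500 bases to each side, and 52.7% without pairs at the same position, 16 bp or 32 bp. The limit of 6, the removal of these pairs and that of the cancer hotspot genes were chosen after seeing the data. All other alternatives run left the value within its interval or within 1.5 times the main count, such as control distances of 100 bp (13213 sites) and 1000 bp (10850), p at most 0.01 for control summits (12489), positions from the siStar-PAP list (11917) and sites counted once within 500 bp (11897). No paired analysis was possible because each condition was 1 library and no result came from a test. No library could be left out for the same reason. A site absent from the control may have been missed at a depth that the lists do not give.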
